A study of Mus musculus with 8 samples.

Results

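Solute carriers are membrane proteins that move amino acids, metals, ions, sugars, vitamins and nucleosides across membranes, and 159 of their genes were followed here in mouse bone marrow-derived dendritic cells given CpG. The genes were chosen by their name, which starts with Slc and a digit, and were selected on their measured level. A member had 5 CPM (read counts scaled to a library total of 1000000) or more in 2 or more of the 8 libraries. Glucose and monocarboxylate carriers (Slc2a, Slc16a), Slc11a genes, the iron exporter Slc40a1 and the amino acid carriers Slc7a2 and Slc7a11 were left out by name, which removed 32 of 341 Slc names. The other 309 names included the 159 members, out of 25017 named rows in the whole table. The level rule used all 8 libraries and no contrast between them, and 127 members reached 5 CPM in all 8. Of the 150 carriers that were not members, 44 were listed at 0 CPM in all 8 libraries and 117 stayed under 1 CPM in all 8.

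All cells came from C57BL/6 bone marrow cultured with GM-CSF and IL-4. Every library carried RelB-DBDB, a genotype named for the NF-κB subunit RelB, and 4 of the 8 libraries also carried the IFNAR allele, given as IFNAR;RelB-DBDB in the labels and as an IFNAR knockout in the series design. Each genotype had a control (labelled 1 h) and cells treated for 1, 3 or 8 h with CpG ODN 1668 at 0.1 µM, 1 library each. The agent is an unmethylated DNA oligonucleotide that is sensed by TLR9 in endosomes. The sources used here give neither the animals' age nor whether animals were pooled. Wild-type cells were not analysed here, and no control was labelled 3 or 8 h, so an effect of CpG at those times cannot be told apart from one of longer culture. The series concerns RelB as a brake on NF-κB target genes of inflammation.

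Dendritic cells that sense microbial DNA remodel their metabolism and their lysosomes, and carriers set which nutrients cross the plasma, lysosomal and mitochondrial membranes. Heteromeric amino acid carriers pair the heavy chain Slc3a2 with a light chain such as Slc7a5. Zinc enters the cytosol through Slc39 carriers and leaves it through Slc30 carriers, while Slc31 carriers move copper. In mouse and human cells Slc15a4, a peptide and histidine carrier of endolysosomes, holds the adaptor TASL, through which endosomal Toll-like receptors activate IRF5. Mitochondrial carriers of the Slc25 family exchange ATP, phosphate and metabolites across the inner membrane.

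Depth was lowest in the 8 h library of IFNAR;RelB-DBDB, at 3711818 reads, and highest in that of RelB-DBDB, at 37221530 reads. A count of 3 reads corresponds to 0.808 and 0.0806 CPM there. The RelB-DBDB 8 h library stood apart. Mitochondrially encoded genes took 6.26% of its reads against 1.74% to 2.41% elsewhere, and the members took 0.784% against 0.928% to 0.972%. Dendritic cell markers summed to 7557 CPM in that library and to 10150 to 13060 CPM in the others. Itgax, H2-Ab1 and Cd74 were high in all 8 and Cd209a was at 0 CPM in 3 libraries. Cd74 made up most of the sum, at 4194 CPM there and 6986 CPM in the RelB-DBDB control. Against that control Itgax, H2-Ab1, Flt3 and Batf3 were also lower there. Ccr7 (1119 against 963 CPM), Dpp4 (96.4 against 37.9), Ciita (203.5 against 156.9) and Zbtb46 (87.7 against 76.0) were higher. In these bulk samples, fewer cells of a type and less RNA per cell cannot be told apart. Values below are in the order control, 1 h, 3 h and 8 h within each genotype.

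Per kilobase of exon, the most abundant members were a mixed group. The ADP/ATP carrier Slc25a5 led with a mean of 177 CPM per kb over the 8 libraries, ahead of the taurine carrier Slc6a6 (129.7), the haem carrier Slc48a1 (127), the scaffold gene Slc9a3r1 (110.0) and the ADP/ATP carrier Slc25a4 (107). Slc15a3, a lysosomal peptide and histidine carrier, reached 79.1 CPM per kb, and the mitochondrial phosphate carrier Slc25a3 reached 70.05. Slc6a6 had the highest level before division by length, at 956, 936, 1220 and 1313 CPM in RelB-DBDB and 956, 954, 1248 and 1192 CPM in IFNAR;RelB-DBDB. Slc25a4 and Slc25a5 are close paralogs, and reads shared between them could be split in ways the deposited values do not show. Mitochondrial carriers formed the largest class, with 33 members and 23.8% of the summed CPM of all members. Just inside the level rule were Slc36a2, Slc6a13, Slc25a14, Slc9a9 and Slc9a5, whose second-highest library had 5.01 to 5.81 CPM. Just outside were Slc6a9, Slc13a3, Slc4a8, Slc25a53 and Slc25a43, with 4.04 to 4.42 CPM. The zinc carrier Slc39a8 (0.537 to 2.47 CPM) and the nucleoside carrier Slc28a2 (0.912 to 4.06 CPM) were not members.

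After 1 h of CpG no member passed the test. The test was a limma fit of log2(CPM + 1) with genotype and condition as additive terms on all 8 libraries, adjusted by the Benjamini-Hochberg method over 12297 genes with a threshold of 0.05. Over all genes 8 were called, 0.0651% of those tested, and 0 members had an unadjusted p under 0.05. Changes on this scale understate those of low genes. The largest positive values with the same sign in both genotypes were those of Slc25a25 (0.34), Slc41a1 (0.34) and Slc30a6 (0.32), and the largest negative values those of Slc35g1 (-0.47), Slc8a1 (-0.34) and Slc6a13 (-0.32). The members' median log2 change was -0.0046 against -0.011 for all tested genes.

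At 3 h, 17 members passed the test. Of these, 7 rose, which is 4.40% of the members against 3.64% of all tested genes, and 10 fell, which is 6.29% against 3.87%. The 7 were Slc22a21, Slc5a3, Slc39a14, Slc31a2, Slc41a1, Slc39a4 and Slc9a3r1. The 10 were Slc26a11, Slc9a3r2, Slc27a3, Slc45a4, Slc12a7, Slc36a1, Slc30a1, Slc27a1, Slc35c2 and Slc25a24. The median log2 change was -0.14 for members and -0.16 for all tested genes, and the second moved to -0.014 with median-ratio and -0.052 with TMM factors. Leaving out 1 library changed the count. Dropping the control of RelB-DBDB left 0 calls and dropping that of IFNAR;RelB-DBDB left 1. It was 0 with either 3 h library dropped, 8 with either 1 h library dropped and 76 with either 8 h library dropped, when 34.9% to 35.1% of all tested genes were called.

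At 8 h, 45 members passed the test and falls outnumbered rises. Of these, 10 rose, 6.29% of members against 6.51% of all tested genes, and 35 fell, 22.01% of members against 15.1%. Rescaling by median-ratio factors turned this split into 22 higher and 21 lower, which is 13.8% and 13.2% of members against 9.97% and 9.02% of all tested genes. With TMM factors it was 19 and 22, or 11.9% and 13.8% against 9.16% and 9.73%, where the factor of the RelB-DBDB 8 h library (0.793 and 0.780) was below those of the other libraries (0.955 to 1.11). At 3 h the same factors gave 11 higher and 9 lower (4.80% and 3.02% of all tested genes), or 10 and 10 (4.39% and 3.59%). The all-gene median of -0.23 at 8 h moved to 0.0067 and -0.012 under these scalings, and the members' median of -0.37 moved to -0.10 and -0.12. Of the 35 falls, 21 remained called with median-ratio factors, 22 with TMM factors and 31 without the RelB-DBDB 8 h library. Without that library 57 members were called, 24 higher and 33 lower, and 26.2% of all tested genes. Leaving out an 8 h library moved the 8 h value of 14 of the 45 by over 1.5 times, and such values stand beside the genes named below. Only Slc26a11 and Slc9a3r2 at 8 h and Slc15a2 between genotypes were called in all 8 fits that left out 1 library. Every other call at 3 h, at 8 h or between genotypes was lost in at least 1 of them. Slc26a11 and Slc9a3r2 are members only through control or 1 h libraries, and Slc15a2 only through IFNAR;RelB-DBDB libraries. The level rule thus built the direction of these stable calls into membership. With a control dropped the count was 2 (that of RelB-DBDB) or 11 (that of IFNAR;RelB-DBDB). With a 3 h library dropped it was 18 or 17 in the same order, with either 1 h library dropped it was 23, and dropping the 8 h library of IFNAR;RelB-DBDB gave 115, when 57.4% of all tested genes were called. The 3 h and 8 h comparisons share their control libraries. Slc22a21, Slc31a2 and Slc39a4 were called higher at both times, and 9 genes were called lower at both.

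**Figure D1:**
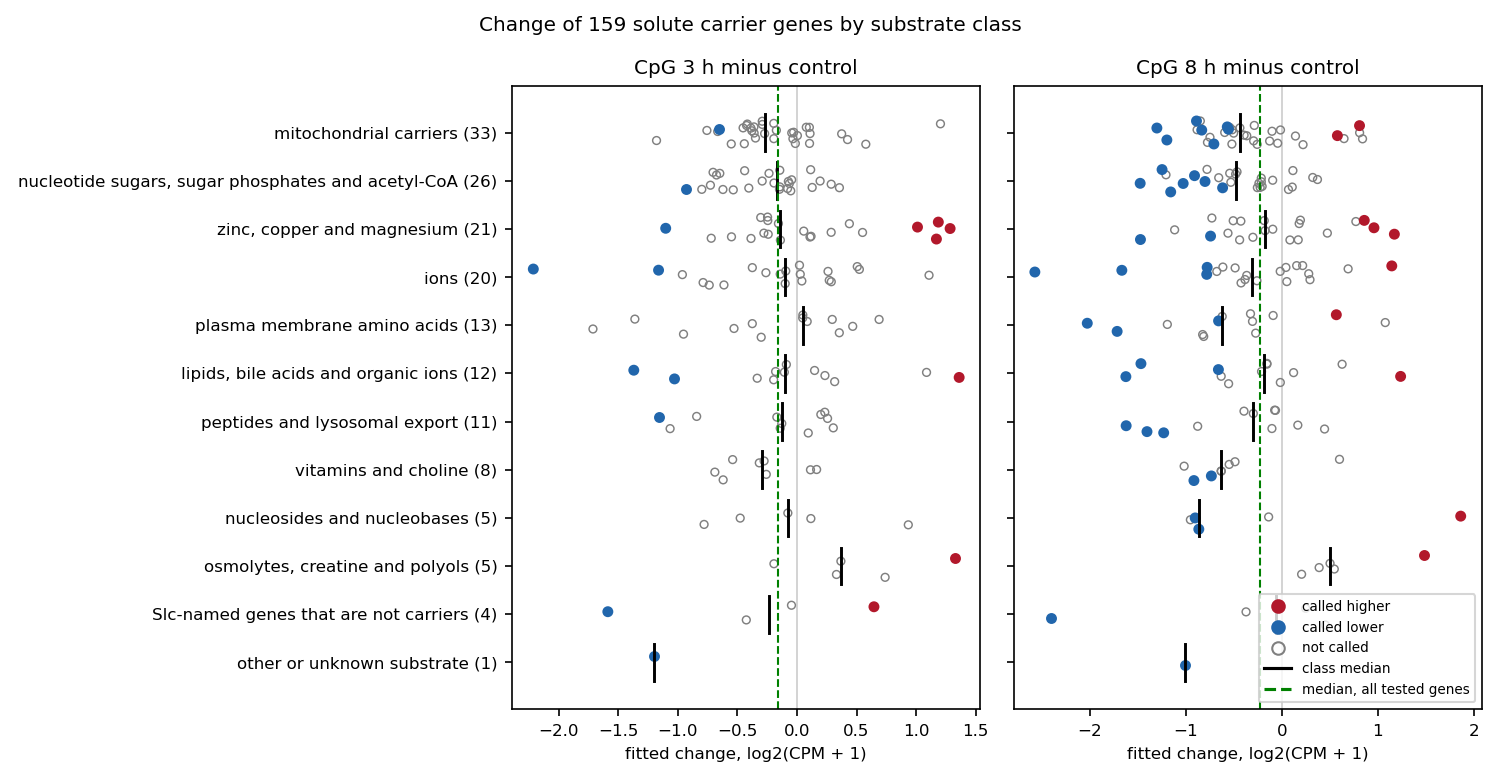
Fitted log2(CPM + 1) change of each of the 159 members (points) at 3 h (left) and 8 h (right) of CpG against control, by substrate class with the number of members in brackets. Filled points passed the limma test (red higher, blue lower), black bars are class medians and the dashed line is the median of all tested genes. At 8 h the medians of metal, lipid and osmolyte carriers and of the genes that are not carriers lie above the median of all tested genes and those of the other 8 classes below it.

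The level rule shaped some of these calls. Slc22a21, Slc28a3 and Slc8a1 reached 5 CPM only in 3 h or 8 h libraries, and Slc26a11, Slc9a3r2, Slc9a9 and Slc19a1 only in control or 1 h libraries, so a difference in that direction was built into their membership. Among the 127 members at 5 CPM or more in all 8 libraries, 5 rose and 8 fell at 3 h, and 6 rose and 26 fell at 8 h.

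Metal carriers contributed 4 of the 7 rises at 3 h and 3 of the 10 at 8 h, from a class of 21 members with a median log2 change of -0.14 and -0.17. The class also had 1 fall at 3 h and 2 at 8 h. The medians of all tested genes were -0.16 and -0.23. Of all tested genes, 3.64% rose and 3.87% fell at 3 h, and 6.51% rose and 15.1% fell at 8 h. Slc31a2, a copper transporter of endosomes and lysosomes, was at 35.4, 36.2, 98.5 and 88.5 CPM in RelB-DBDB and 52.9, 47.3, 101 and 110.2 CPM in IFNAR;RelB-DBDB. Every 3 h and 8 h library was above every control and 1 h library. The log2 change was 1.19 (SE 0.17, adjusted p = 0.00923) at 3 h and 1.17 (SE 0.17, adjusted p = 0.00511) at 8 h. Slc31a1, the plasma membrane copper importer, was at 41.9, 42.2, 54.8 and 73.05 CPM in RelB-DBDB and 37.5, 43.4, 53.4 and 72.2 CPM in IFNAR;RelB-DBDB. It was higher in both 8 h libraries than in the other 6, and rose at 8 h by 0.86 (SE 0.14, adjusted p = 0.00878), while its 3 h value of 0.44 did not pass (adjusted p = 0.116).

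The zinc importers that passed at 3 h rose and the zinc exporter that passed fell. Slc39a4, a plasma membrane zinc importer, was at 19.7, 20.1, 46.96 and 36.9 CPM in RelB-DBDB and 18.8, 19.4, 33.7 and 39.9 CPM in IFNAR;RelB-DBDB. Its 4 late libraries all exceeded its 4 early ones. Slc39a4 rose by 1.01 (SE 0.19, adjusted p = 0.0255) at 3 h and 0.96 (SE 0.19, adjusted p = 0.0165) at 8 h. Slc39a14, which imports zinc, manganese and iron, was at 19.97, 21.1, 56.3 and 27.4 CPM in RelB-DBDB and 19.3, 19.3, 43.1 and 42.6 CPM in IFNAR;RelB-DBDB. Both 3 h libraries stood above the controls, and at 8 h the RelB-DBDB library was much closer to its control than the IFNAR;RelB-DBDB library was. Slc39a14 rose at 3 h by 1.29 (SE 0.25, adjusted p = 0.0267), and its 8 h value was 0.77 (SE 0.25, adjusted p = 0.0653). Slc30a1, the zinc exporter of the plasma membrane, was at 59.9, 50.2, 26.3 and 33.6 CPM in RelB-DBDB and 34.2, 27.3, 16.02 and 27.5 CPM in IFNAR;RelB-DBDB. In each genotype its lowest library was that at 3 h. Slc30a1 changed by -1.10 (SE 0.19, adjusted p = 0.0189) at 3 h and by -0.56 (SE 0.19, adjusted p = 0.0753) at 8 h, which did not pass. The zinc carrier Slc39a9 fell at 8 h (-0.74, adjusted p = 0.0294), a call not kept with median-ratio factors.

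Slc41a1 and Slc41a3 belong to a family of magnesium transporters. Slc41a1 was at 47.8, 56.7, 119 and 60.3 CPM in RelB-DBDB and 55.4, 75.1, 115 and 85.7 CPM in IFNAR;RelB-DBDB. The 3 h libraries were the highest in both genotypes. It rose at 3 h by 1.17 (SE 0.17, adjusted p = 0.0108) and stood at 0.47 (SE 0.17, adjusted p = 0.0861) at 8 h. Slc41a3 was at 22.4, 20.3, 11.2 and 5.16 CPM in RelB-DBDB and 21.3, 23.8, 14.8 and 9.97 CPM in IFNAR;RelB-DBDB, lowest at 8 h in both genotypes, and fell by 1.47 (SE 0.25, adjusted p = 0.00899) at 8 h. The metal-sensing transcription factor Mtf1 rose at 3 h (log2 change 0.92, adjusted p = 0.0151) and at 8 h (0.58, adjusted p = 0.0359). Of the metallothioneins, which buffer zinc and copper, Mt1 fell at 8 h (-0.71, adjusted p = 0.0302), and Mt2 did not pass (-0.62, adjusted p = 0.0526).

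Promoters are shown for Slc30a1 and Slc31a2, a zinc and a copper carrier called in opposite directions at 3 h, since both metals are sensed by transcription factors and Slc30a1 is a textbook target of Mtf1. They run from 250 bases before to 50 after the RefSeq start (build GRCm38.p6), in 5′ to 3′ order on the plus strand of chr1:191906531-191906830 and chr4:62286179-62286478. Capitals mark the core of the metal response element, TGCNCNC, on either strand.
Slc30a1: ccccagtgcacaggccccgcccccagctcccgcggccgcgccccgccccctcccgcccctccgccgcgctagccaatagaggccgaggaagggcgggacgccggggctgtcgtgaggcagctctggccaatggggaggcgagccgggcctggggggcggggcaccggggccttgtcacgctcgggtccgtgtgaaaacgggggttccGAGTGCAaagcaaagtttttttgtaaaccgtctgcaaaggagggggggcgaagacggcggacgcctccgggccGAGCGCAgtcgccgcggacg
Slc31a2: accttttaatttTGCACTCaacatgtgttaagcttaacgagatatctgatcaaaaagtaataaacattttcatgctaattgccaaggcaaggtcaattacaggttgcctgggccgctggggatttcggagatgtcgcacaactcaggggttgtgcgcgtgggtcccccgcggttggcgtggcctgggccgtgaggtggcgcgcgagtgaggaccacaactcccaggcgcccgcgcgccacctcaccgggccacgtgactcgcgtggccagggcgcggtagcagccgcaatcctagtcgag
The Slc30a1 promoter holds 2 matches, starting at positions 208 and 281 of the 300 bases, and that of Slc31a2 holds 1, starting at position 13. None overlaps a match to the other 3 motifs searched. This short motif occurs in 51.03% of all 32851 promoters of this length, and in 60.1% of the promoters found for 121 of the members. A match is a description of the letters and not a measured site.

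**Figure D2:**
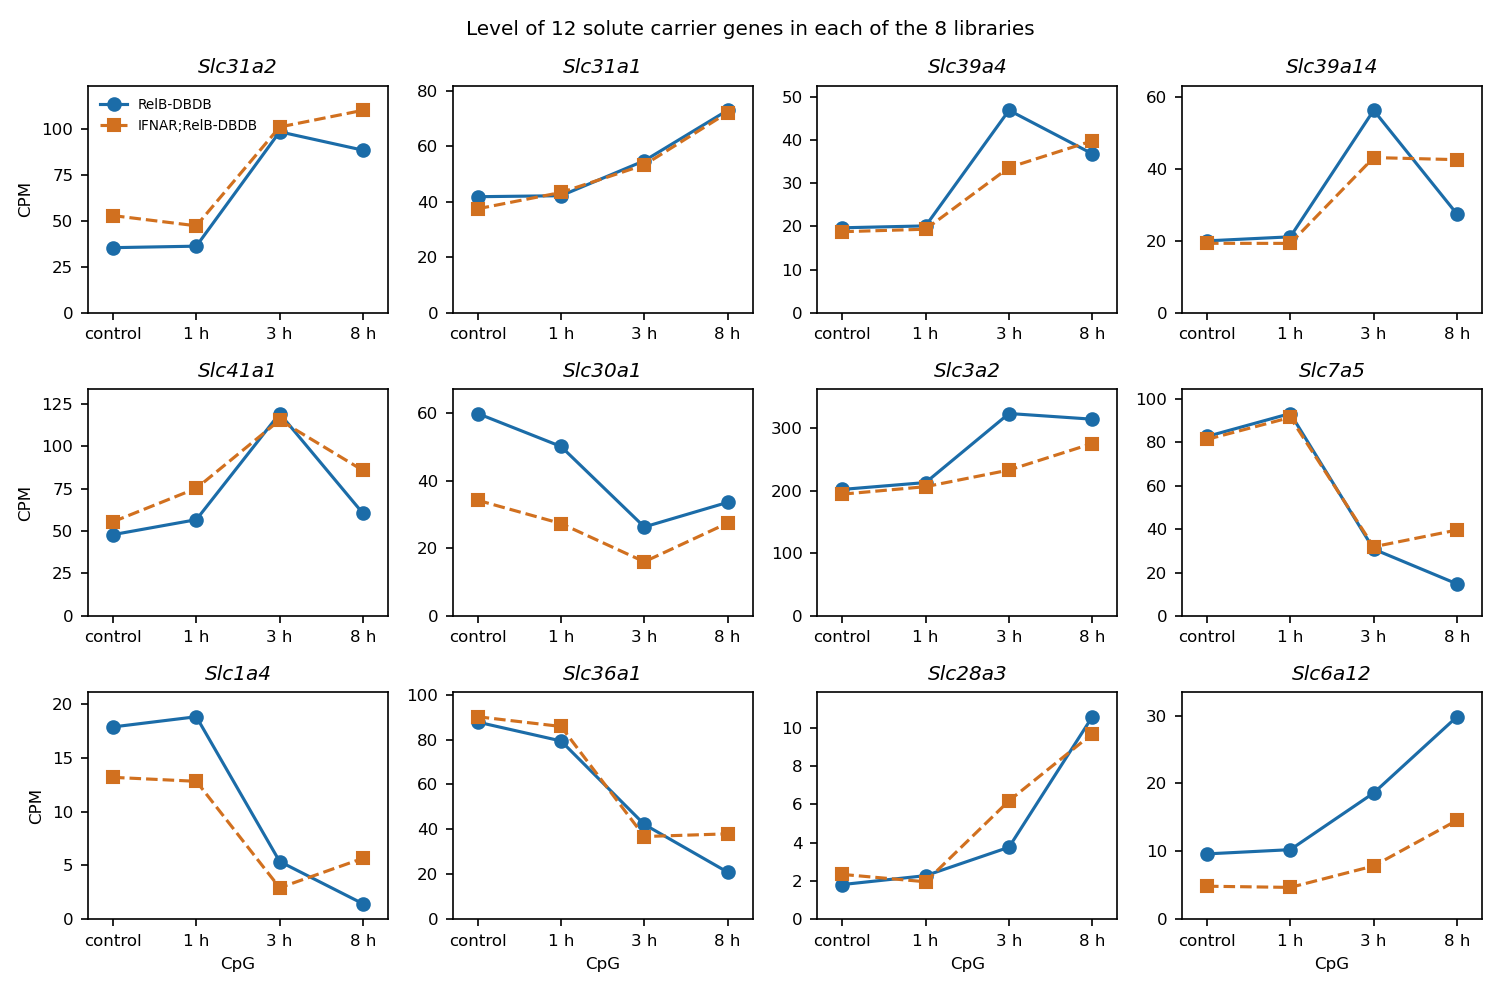
Level in CPM (y axis from 0) of 12 members in each of the 8 libraries, with control, 1 h, 3 h and 8 h of CpG on the x axis. Circles joined by full lines are RelB-DBDB and squares joined by dashed lines IFNAR;RelB-DBDB, 1 library per point. Slc31a2 is at 88.5 CPM or more in all 4 late libraries and at 52.9 CPM or less in the 4 early ones, while Slc7a5 is at 39.6 CPM or less in all 4 late libraries.

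Amino acid carriers of the plasma membrane split at 8 h, when 1 of 13 rose and 3 fell, with a class median of -0.62. The median of all tested genes was -0.23, and 15.1% of them fell. Class medians here and below were taken on the deposited scale only. The heavy chain Slc3a2 and its light chain Slc7a5, which together import leucine and other large neutral amino acids, moved apart. Slc3a2 was at 202, 213, 324 and 314 CPM in RelB-DBDB and 195, 207, 233 and 276 CPM in IFNAR;RelB-DBDB. The 4 late libraries were above the 4 early ones. Slc3a2 rose at 8 h by 0.57 (SE 0.15, adjusted p = 0.038), and its 3 h value was 0.47 (SE 0.15, adjusted p = 0.111). Slc7a5 was at 82.7, 93.3, 30.8 and 14.8 CPM in RelB-DBDB and 81.4, 91.5, 31.9 and 39.6 CPM in IFNAR;RelB-DBDB, so its late libraries were all below its early ones. It fell by 1.72 (SE 0.34, adjusted p = 0.0164) at 8 h, with a value of -1.03 without the RelB-DBDB 8 h library, and at 3 h the value of -1.36 did not pass (adjusted p = 0.0606). Slc7a8, another light chain partner of Slc3a2, was at 55.5, 53.4, 95.9 and 187 CPM in RelB-DBDB and 78.8, 78.8, 120.2 and 106 CPM in IFNAR;RelB-DBDB. Its 8 h value of 1.08 did not pass (adjusted p = 0.0538), with 1.74 in RelB-DBDB and 0.42 in IFNAR;RelB-DBDB.

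The neutral amino acid exchanger Slc1a4 was at 17.9, 18.8, 5.36 and 1.42 CPM in RelB-DBDB and 13.2, 12.8, 2.91 and 5.66 CPM in IFNAR;RelB-DBDB. All late libraries were below the early ones, and the RelB-DBDB 8 h library was the lowest. It fell by 2.03 (SE 0.50, adjusted p = 0.0321) at 8 h, and the value ranged from -3.03 when the 8 h library of IFNAR;RelB-DBDB was left out to -1.03 when that of RelB-DBDB was. The call was kept in 4 of the 8 fits that left out 1 library. Its relative Slc1a5, a glutamine carrier, was at 109, 109.6, 78.9 and 27.8 CPM in RelB-DBDB and 114, 119, 93.6 and 83.5 CPM in IFNAR;RelB-DBDB, and its 8 h value of -1.19 did not pass (adjusted p = 0.0512). Slc1a5 was far lower in the RelB-DBDB 8 h library than in the other 7. Slc38a10, of a family of sodium-coupled amino acid carriers, fell at 8 h (-0.66, adjusted p = 0.0324), a call not kept with either set of scaling factors and a value of -0.43 without the RelB-DBDB 8 h library. Neither the cationic amino acid carrier Slc7a1 (-0.81, adjusted p = 0.0614) nor the glutamine carrier Slc38a2 (-0.33, adjusted p = 0.209) passed.

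The Slc1a4 promoter is shown because the gene had the largest fitted fall of its class and because amino acid carriers are known targets of ATF4, which binds C/EBP-ATF response elements. Capitals mark TGATGNAA, the core of such an element, on either strand of the RefSeq window chr11:20332664-20332963 (GRCm38.p6, printed 5′ to 3′ on the minus strand).
Slc1a4: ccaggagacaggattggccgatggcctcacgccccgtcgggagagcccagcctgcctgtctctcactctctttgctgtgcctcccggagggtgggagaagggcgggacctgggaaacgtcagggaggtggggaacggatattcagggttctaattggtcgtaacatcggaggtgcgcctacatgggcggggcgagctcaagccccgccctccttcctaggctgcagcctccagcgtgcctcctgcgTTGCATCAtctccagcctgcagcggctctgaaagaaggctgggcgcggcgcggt
The match starts at position 247 and overlaps none of the other motifs. The motif occurs in 3.97% of all promoters and in 2.98% of members' promoters.

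Carriers of peptides and of lysosomal export had 1 fall at 3 h and 3 at 8 h among 11 members, and no rise. Slc36a1, a proton-coupled exporter of small amino acids on lysosomes, was at 87.8, 79.4, 42.2 and 20.9 CPM in RelB-DBDB and 90.2, 85.8, 36.8 and 37.99 CPM in IFNAR;RelB-DBDB. Both late time points were below both early ones in each genotype. Slc36a1 changed by -1.16 (SE 0.25, adjusted p = 0.0365) at 3 h and by -1.62 (SE 0.25, adjusted p = 0.00624) at 8 h. Slc17a5, the lysosomal sialic acid exporter, was at 33.3, 32.1, 23.2 and 10.9 CPM in RelB-DBDB and 38.1, 37.5, 16.2 and 15.1 CPM in IFNAR;RelB-DBDB and fell by 1.41 (SE 0.25, adjusted p = 0.0104) at 8 h. The lysosomal carrier Slc46a3 was at 6.66, 5.03, 2.51 and 1.505 CPM in RelB-DBDB and 10.5, 12.8, 4.73 and 5.39 CPM in IFNAR;RelB-DBDB and fell by 1.23 (SE 0.26, adjusted p = 0.0201) at 8 h. For both, the late libraries of a genotype were below its early ones.

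Slc15a4, named above for its link to IRF5, was at 31.9, 27.6, 34.5 and 24.8 CPM in RelB-DBDB and 44.6, 40.7, 54.6 and 49.3 CPM in IFNAR;RelB-DBDB. Neither its 3 h value of 0.20 (adjusted p = 0.533) nor its 8 h value of -0.10 (adjusted p = 0.684) passed, and the 8 h value was positive under both other scalings. Its close relative Slc15a3 was at 379, 437, 482 and 579.2 CPM in RelB-DBDB and 362, 401, 395 and 439.9 CPM in IFNAR;RelB-DBDB, highest at 8 h in both genotypes, with an 8 h value of 0.44 (SE 0.14, adjusted p = 0.0572). In the annotation, 28.1% of the exon bases of Slc15a3 overlap Tmem132a on the other strand. Slc38a9, the lysosomal arginine sensor of mTORC1, had an 8 h value of -0.39 (adjusted p = 0.17). Of 14 tested partners of lysosomal amino acid sensing, Flcn, Fnip2, Rraga and Rragc fell at 8 h and 0 rose. Of 16 tested subunits of the vacuolar proton pump, 3 fell and 0 rose at that time. Of all tested genes, 15.1% fell and 6.51% rose at 8 h, and both lists were counted on the deposited scale only. Of 6 partners of the Slc15a4 route, Myd88 rose at 3 h (0.77, adjusted p = 0.0335) and none passed at 8 h, when Irf5 was at -0.38 (adjusted p = 0.114). Irf7 was at 8.75, 7.47, 33.3 and 290 CPM in RelB-DBDB and 7.01, 7.05, 4.37 and 2.425 CPM in IFNAR;RelB-DBDB. Its 8 h value of 1.84 (adjusted p = 0.344) averages a large rise in RelB-DBDB and a fall in IFNAR;RelB-DBDB.

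Mitochondrial carriers had 1 fall at 3 h (Slc25a24, not kept under either other scaling) and 7 falls and 2 rises at 8 h. The class median at 8 h was -0.44, against -0.23 for all tested genes. Slc25a12, which exchanges aspartate for glutamate, was at 69.05, 67.4, 72.04 and 108 CPM in RelB-DBDB and 79.2, 78.4, 87.95 and 114 CPM in IFNAR;RelB-DBDB. Both 8 h libraries were above the other 6. It rose by 0.58 (SE 0.13, adjusted p = 0.0263). Slc25a37, the iron importer mitoferrin 1, which the name rule keeps, was at 12.3, 9.42, 22.2 and 24.02 CPM in RelB-DBDB and 21.96, 18.6, 28.2 and 36.4 CPM in IFNAR;RelB-DBDB and rose at 8 h by 0.81 (SE 0.20, adjusted p = 0.0335). Slc25a15, the ornithine carrier, was at 10.9, 10.2, 3.99 and 2.34 CPM in RelB-DBDB and 11.7, 11.1, 4.92 and 6.47 CPM in IFNAR;RelB-DBDB and fell by 1.30 (SE 0.31, adjusted p = 0.0272) at 8 h. Its value without the RelB-DBDB 8 h library was -0.80.

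The other 6 falls of the class at 8 h were not kept with median-ratio or TMM factors. They were the ATP-Mg and phosphate carrier Slc25a24 (-0.56), Slc25a16 (-0.83), the folate and FAD carrier Slc25a32 (-0.71), the glutathione importer Slc25a39 (-0.89), the branched-chain amino acid carrier Slc25a44 (-0.57) and Slc25a5 (-1.20). Slc25a5 was at 342, 343, 286 and 90.1 CPM in RelB-DBDB and 349.6, 350.1, 318 and 250 CPM in IFNAR;RelB-DBDB. The RelB-DBDB 8 h library, the one with the raised share of mitochondrially encoded reads, was far below the other 7. Without it the 8 h value of Slc25a5 was -0.50, and with the 8 h library of IFNAR;RelB-DBDB left out -1.89. For Slc25a16 the value without the RelB-DBDB library was -0.51, and for Slc25a39 it was -0.44, or -1.34 without the IFNAR;RelB-DBDB one. The part of that library's composition in these results was not tested. The phosphate carrier Slc25a3, also lowest there at 165.8 CPM, did not pass (-0.85, adjusted p = 0.0884). The citrate carrier Slc25a1 had values of -0.04 at 3 h and -0.29 at 8 h (adjusted p = 0.904 and 0.257).

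Of the 26 carriers of nucleotide sugars, sugar phosphates and acetyl-CoA, which supply the Golgi and endoplasmic reticulum, 1 fell at 3 h, 7 fell at 8 h and 0 rose. The 8 h class median was -0.47 on the deposited scale, against -0.23 for all tested genes, of which 15.1% fell. Slc35c2, a relative of the Golgi GDP-fucose carrier Slc35c1, was at 52.1, 51.1, 25.99 and 15.6 CPM in RelB-DBDB and 77.5, 69.2, 41.5 and 31.5 CPM in IFNAR;RelB-DBDB. Levels declined from control to 8 h in each genotype. It changed by -0.93 (SE 0.18, adjusted p = 0.0265) at 3 h and by -1.48 (SE 0.18, adjusted p = 0.00291) at 8 h. Slc37a4, the glucose-6-phosphate carrier of the endoplasmic reticulum, was at 14.4, 13.5, 9.23 and 3.49 CPM in RelB-DBDB and 17.5, 13.6, 10.7 and 10.2 CPM in IFNAR;RelB-DBDB and fell by 1.25 (SE 0.33, adjusted p = 0.0387) at 8 h. The other 5 called were Slc35f6 (-1.16), Slc37a3 (-1.03), Slc35e2 (-0.91), Slc37a2 (-0.80) and Slc35c1 (-0.62), of which Slc37a2 and Slc35c1 were not kept under either scaling. Without the RelB-DBDB 8 h library Slc37a4 stood at -0.67 and Slc37a2 at -0.45, and the Slc37a2 call was lost.

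Among 5 carriers of nucleosides and nucleobases, Slc28a3, a sodium-driven nucleoside importer, had the largest rise of any member at 8 h. It was at 1.81, 2.27, 3.76 and 10.6 CPM in RelB-DBDB and 2.34, 1.95, 6.19 and 9.699 CPM in IFNAR;RelB-DBDB. Both 8 h libraries were above both 3 h libraries, which were above the 4 early ones. It rose by 1.86 (SE 0.26, adjusted p = 0.00479), but Slc28a3 is a member only through 3 h or 8 h libraries. Slc29a3, the equilibrative nucleoside carrier of lysosomes, was at 214, 212, 122 and 159.2 CPM in RelB-DBDB and 214, 235, 126 and 86.2 CPM in IFNAR;RelB-DBDB. All late libraries were below all early ones. It fell by 0.87 (SE 0.25, adjusted p = 0.0482) at 8 h, and the call was not kept under either scaling. The value was -1.33 with the 8 h library of RelB-DBDB left out and -0.40 with that of IFNAR;RelB-DBDB left out, and the call was lost without any of the other 6. Slc17a9, the vesicular ATP carrier, fell by 0.90 (SE 0.22, adjusted p = 0.0302) at 8 h. The purine nucleobase carrier Slc43a3 ranged from 13.5 to 20.9 CPM and had an 8 h value of -0.14 (adjusted p = 0.621). Of 8 carriers of vitamins and choline, the vitamin C carrier Slc23a2 (-0.73, SE 0.16, adjusted p = 0.0205) and the reduced folate carrier Slc19a1 (-0.92, SE 0.25, adjusted p = 0.0404) fell at 8 h, the second not under either other scaling, and 0 rose. Slc19a1 is a member only through control or 1 h libraries.

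Osmolyte carriers had a positive class median at both times, 0.37 at 3 h and 0.50 at 8 h over 5 members. The medians of all tested genes were -0.16 and -0.23. Slc6a13 of this class reached 5 CPM only in 8 h libraries, so a higher 8 h level was built into its membership and enters the class median. Slc6a12, which imports betaine and GABA, was at 9.61, 10.2, 18.6 and 29.8 CPM in RelB-DBDB and 4.84, 4.67, 7.83 and 14.6 CPM in IFNAR;RelB-DBDB. Within each genotype the 8 h library was the highest and the 3 h library the next. It rose at 8 h by 1.48 (SE 0.19, adjusted p = 0.00395). Slc5a3, the myo-inositol importer, was at 5.896, 4.87, 15.2 and 4.86 CPM in RelB-DBDB and 6.01, 9.08, 17.8 and 9.97 CPM in IFNAR;RelB-DBDB. It peaked at 3 h in both genotypes, where it rose by 1.33 (SE 0.28, adjusted p = 0.0336). At 8 h its value was 0.21 (adjusted p = 0.598). The taurine carrier Slc6a6 was above its early libraries in all 4 late ones but did not pass at 8 h (0.39, SE 0.13, adjusted p = 0.0669). Slc6a12 and Slc6a13 are paralogs, and reads they share could not be separated here.

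The promoter of Slc6a12 is shown because it is the only one among the promoters found for members called higher that matches GGGANNTTC, the first part of an NF-κB site. Capitals mark the match on the RefSeq window chr6:121342324-121342623 (GRCm38.p6, plus strand, 5′ to 3′), which belongs to 1 of several starts of the gene.
Slc6a12: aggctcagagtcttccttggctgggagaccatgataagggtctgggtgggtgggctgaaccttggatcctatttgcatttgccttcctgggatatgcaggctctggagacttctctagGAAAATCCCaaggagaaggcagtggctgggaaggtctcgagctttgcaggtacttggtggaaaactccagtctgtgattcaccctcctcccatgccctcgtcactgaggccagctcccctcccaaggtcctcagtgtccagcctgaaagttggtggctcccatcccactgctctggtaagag
The match starts at position 119 and overlaps none of the other motifs. These letters, on either strand, occur in 3.94% of all promoters and in 2.98% of members' promoters. Promoters were found for 10 genes called higher at 3 or 8 h, of which 1 held the motif, and for 27 called lower, of which 2 held it. The windows at the other starts of Slc6a12 held no such match. The fourth motif, GAAANNGAA, the first part of an interferon-stimulated response element, occurs in 8.56% of all promoters and 5.95% of members' promoters. Some of the other Slc6a12 windows hold it.

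Among 20 ion carriers, 2 fell at 3 h, and 4 fell and 1 rose at 8 h. Slc26a11, a sulfate carrier, had the largest fall of any member at both times and was at 11.1, 10.4, 1.14 and 0.376 CPM in RelB-DBDB and 6.26, 7.47, 0.9104 and 0.808 CPM in IFNAR;RelB-DBDB. The 4 late libraries were all far below the 4 early ones. It changed by -2.21 (SE 0.30, adjusted p = 0.00849) at 3 h and by -2.57 (SE 0.30, adjusted p = 0.0026) at 8 h. The 8 h call held when any 1 of the 8 libraries was left out, but Slc26a11 is a member only through control or 1 h libraries. Slc12a7, a potassium-chloride cotransporter, changed by -1.16 (SE 0.19, adjusted p = 0.0157) at 3 h and -0.78 (SE 0.19, adjusted p = 0.031) at 8 h, the latter being -0.50 without the RelB-DBDB 8 h library. The endosomal sodium-proton exchanger Slc9a9 fell by 1.67 (SE 0.22, adjusted p = 0.00381) at 8 h, but is a member only through control or 1 h libraries. The sodium-calcium exchanger Slc8a1 was at 4.85, 2.76, 1.71 and 15.7 CPM in RelB-DBDB and 4.93, 4.75, 2.37 and 9.16 CPM in IFNAR;RelB-DBDB, lowest at 3 h and highest at 8 h in both genotypes. It rose at 8 h by 1.15 (SE 0.33, adjusted p = 0.0489), a call kept in 1 of the 8 fits that left out 1 library and lost with TMM factors (1.37, adjusted p = 0.0505), with a pseudocount of 0.5 and with no filter on low values. Without the RelB-DBDB 8 h library its value was 0.63. Slc8a1 is a member only through 8 h libraries. The phosphate importer Slc20a1 had values of 0.51 at 3 h and -0.02 at 8 h (adjusted p = 0.126 and 0.949).

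Of 12 carriers of lipids and organic ions, Slc27a1 and Slc27a3, of a family of fatty acid transport proteins with acyl-CoA synthetase activity, fell at both times. Slc27a3 was at 37.1, 31.01, 11.1 and 9.699 CPM in RelB-DBDB and 63.6, 55.5, 29.5 and 23.2 CPM in IFNAR;RelB-DBDB. It changed by -1.37 (SE 0.20, adjusted p = 0.011) at 3 h and -1.62 (SE 0.20, adjusted p = 0.00318) at 8 h. Slc27a1 was at 34.9, 29.9, 14.2 and 8.81 CPM in RelB-DBDB and 28.1, 26.7, 15.5 and 12.9 CPM in IFNAR;RelB-DBDB and changed by -1.03 (SE 0.23, adjusted p = 0.0442) and -1.47 (SE 0.23, adjusted p = 0.00738). For both genes every late library of a genotype was below its early ones. Slc10a3 also fell at 8 h (-0.66, adjusted p = 0.045), not under either other scaling. Slc22a21, a carnitine carrier known from mouse, was at 2.47, 1.299, 7.75 and 6.45 CPM in RelB-DBDB and 2.92, 3.14, 9.29 and 9.16 CPM in IFNAR;RelB-DBDB. Its 4 late libraries were above its 4 early ones. It rose by 1.36 (SE 0.25, adjusted p = 0.0219) at 3 h and 1.24 (SE 0.25, adjusted p = 0.0161) at 8 h. Slc22a21 is a member only through 3 h or 8 h libraries, so the direction was built into its membership. Reads it shares with its close relatives Slc22a4 and Slc22a5 could be split in ways the deposited values do not show.

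Some Slc-named genes are not carriers. The scaffold genes Slc9a3r1 and Slc9a3r2, which tether membrane proteins to the cytoskeleton, moved in opposite directions. Slc9a3r1 was at 166, 156, 292 and 220.3 CPM in RelB-DBDB and 182, 164, 255 and 258 CPM in IFNAR;RelB-DBDB and rose at 3 h by 0.65 (SE 0.15, adjusted p = 0.0432). Slc9a3r2 was at 10.3, 9.903, 3.08 and 1.32 CPM in RelB-DBDB and 9.43, 7.05, 2.19 and 0.808 CPM in IFNAR;RelB-DBDB. Its late libraries were all below its early ones. It changed by -1.59 (SE 0.21, adjusted p = 0.00815) at 3 h and by -2.41 (SE 0.21, adjusted p = 0.000926) at 8 h. The 8 h call held when any 1 library was left out, but Slc9a3r2 is a member only through control or 1 h libraries. Slc45a4, the single member of no other class, also fell (-1.20, SE 0.26, adjusted p = 0.0366 at 3 h and -1.01, SE 0.26, adjusted p = 0.0335 at 8 h), with an 8 h value of -0.59 without the RelB-DBDB 8 h library.

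On the deposited scale, changes at 8 h were lower in RelB-DBDB than in IFNAR;RelB-DBDB, with 1 library of each. The median change of the members was -0.65 in RelB-DBDB against -0.36 for all tested genes, and -0.076 in IFNAR;RelB-DBDB against -0.12. In RelB-DBDB 50 members (31.4%) were lower by 2-fold or more and 7 (4.40%) higher, against 19.6% and 6.90% of all tested genes. In IFNAR;RelB-DBDB 12 (7.55%) were lower and 8 (5.03%) higher, against 6.23% and 4.24%. With median-ratio factors, which are 0.793 for the RelB-DBDB 8 h library and 1.05 for its control, 27 members were lower and 15 higher in RelB-DBDB, 16.98% and 9.43% against 10.2% and 12.5% of all tested genes. The change was lower in RelB-DBDB for 124 of 159 members (78.0%), for 32 of the 35 called lower, and for 65.5% of all tested genes, and with median-ratio factors for 110 members (69.2%) and 49.6% of all tested genes. The exceptions among the 35 were Slc29a3, Slc25a24 and Slc9a3r2. These are values of single libraries, and the RelB-DBDB 8 h library is the one with the raised mitochondrial share, whose part in the result was not tested.

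An interaction term asked whether the genotypes differed more late (3 and 8 h) than early (control and 1 h). It called 0 members, with 0 of 12297 genes called (0%), and 2 members had an unadjusted p under 0.05, both in the negative direction. With that test negative values included those of the glutamate carrier Slc25a22 (-1.65, adjusted p = 0.485) and Slc7a8 (-0.77). Slc25a22 was at 26.9, 21.1, 43.4 and 95.8 CPM in RelB-DBDB and 34.5, 32.7, 24.9 and 31.8 CPM in IFNAR;RelB-DBDB, so the late libraries were the highest of RelB-DBDB and the lowest of IFNAR;RelB-DBDB. The largest positive values were those of the basic amino acid carrier Slc25a29 (1.21), Slc22a18 (0.99) and Slc1a4 (0.85). Slc25a29 was at 3.14, 3.41, 9.01 and 2.04 CPM in RelB-DBDB and 4.01, 4.16, 10.01 and 19.9 CPM in IFNAR;RelB-DBDB, highest by far at 8 h in IFNAR;RelB-DBDB. The dicarboxylate carrier Slc25a10 was at 56.2 CPM in the RelB-DBDB control and 34.8 at 8 h, but at 62.6 and 98.6 CPM in IFNAR;RelB-DBDB. The test called 92 members (57.9%) without either 3 h library, when 45.8% to 45.9% of all tested genes were called, 7 without either 8 h library (5.59% to 5.70% of all) and 0 without any of the other 4, with 1 residual degree of freedom.

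**Figure D3:**
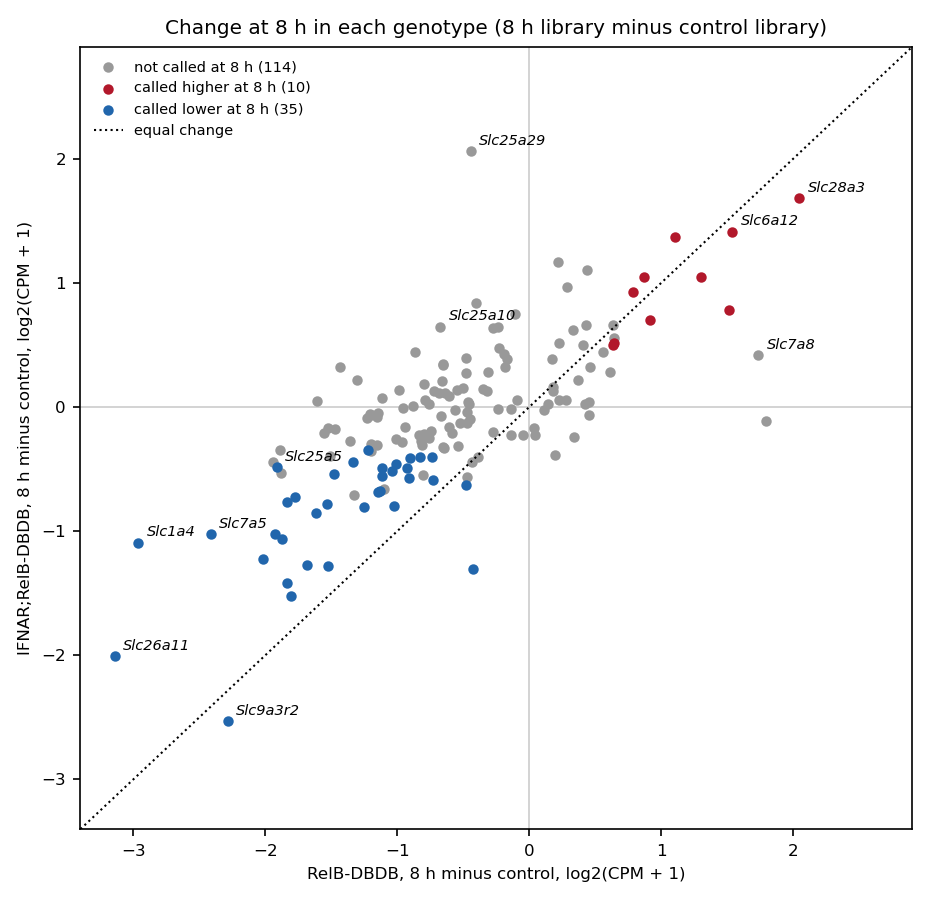
Change of each of the 159 members at 8 h of CpG against control, log2(CPM + 1), in RelB-DBDB (x axis) and IFNAR;RelB-DBDB (y axis), each from 1 library per condition. Red points were called higher and blue points lower over both genotypes, and the dotted line marks equal change. Of the 35 blue points, 32 lie above the line, where the change is lower in RelB-DBDB.

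Between genotypes, over all conditions, 7 members were higher in IFNAR;RelB-DBDB, 4.40% of members against 4.59% of all tested genes, and 5 were lower, 3.14% against 1.66%. The same contrast that called the 12 fixes much of their pattern: all 12, like all 769 genes called, differed in the same direction in each of the 4 conditions. The genotypes did not overlap for 6 of the 12, against 68.1% of all genes called, and for 9.43% of all members against 10.0% of all tested genes. With median-ratio or TMM factors 6 were higher and 6 lower, each 3.77% of members. Of all tested genes, 3.67% were then higher and 2.675% lower with median-ratio factors, and 3.58% and 2.71% with TMM factors. The all-gene median of 0.11 moved to -0.013 and -0.023. Among the 127 members at 5 CPM or more in all 8 libraries, 5 were higher and 3 lower on the deposited scale. Slc15a2, a plasma membrane importer of small peptides, was at 0, 0, 0 and 0.0269 CPM in RelB-DBDB and 4.67, 6.197, 7.101 and 4.04 CPM in IFNAR;RelB-DBDB. The RelB-DBDB libraries held 1 read of it among 62669567 and the IFNAR;RelB-DBDB libraries 183 among 32960843. The ratio of these shares was 348, with an exact 95% interval from 61.7 to 13820 that covers counting error only. Its genotype difference was 2.67 (SE 0.18, adjusted p = 0.00139), called with any 1 of the 8 libraries left out. Slc15a2 is a member only through its IFNAR;RelB-DBDB libraries.

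Slc15a4, at 24.8 to 34.5 CPM in RelB-DBDB and 40.7 to 54.6 CPM in IFNAR;RelB-DBDB, was higher without overlap (0.66, SE 0.13, adjusted p = 0.028). Slc46a3 (0.96, SE 0.19, adjusted p = 0.0288), Slc27a3 (1.02, SE 0.14, adjusted p = 0.00896) and Slc35c2 (0.66, SE 0.13, adjusted p = 0.0287), which fell with CpG, were higher at each time but overlapped over all times. Slc25a25, a calcium-regulated ATP-Mg and phosphate carrier (0.53, adjusted p = 0.0414), and Slc25a37 (0.65, adjusted p = 0.0449) were called but not kept with median-ratio or TMM factors. Among the other partners of endosomal sensing, Tlr7 was lower in IFNAR;RelB-DBDB (-1.52, adjusted p = 0.0142). Irf7 did not pass (-2.36, adjusted p = 0.208), though it was far lower in IFNAR;RelB-DBDB at 3 and 8 h.

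Lower in IFNAR;RelB-DBDB were Slc36a2, Slc6a8, Slc6a12, Slc30a4 and Slc30a1. The creatine importer Slc6a8 was at 31.8, 30.03, 39.5 and 43.1 CPM in RelB-DBDB and 14.4, 13.2, 18.8 and 23.4 CPM in IFNAR;RelB-DBDB. The genotypes did not overlap, and the difference was -1.02 (SE 0.12, adjusted p = 0.00482). The vesicular zinc carrier Slc30a4 was at 253, 265, 216 and 179 CPM in RelB-DBDB and 131, 166, 124 and 146 CPM in IFNAR;RelB-DBDB, again without overlap, with a difference of -0.68 (SE 0.12, adjusted p = 0.0247). Slc36a2, a proton-coupled carrier of small amino acids, was at 4.18, 6.66, 5.01 and 1.42 CPM in RelB-DBDB and 1.002, 1.02, 0.364 and 0.269 CPM in IFNAR;RelB-DBDB. It was a member only through RelB-DBDB libraries, and its difference was -1.59 (SE 0.23, adjusted p = 0.0103). Slc6a12 (-0.996, SE 0.14, adjusted p = 0.00873) and the zinc exporter Slc30a1 (-0.65, SE 0.14, adjusted p = 0.0374) were lower at each time and overlapped over all times. The count of 12 calls became 4 without either control or either 1 h library, 1 without either 3 h library, and 29 or 28 when the 8 h library of RelB-DBDB or of IFNAR;RelB-DBDB was dropped.

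Markers of other cell types differed with genotype beside these calls. The 7 T and NK cell markers summed to 24.5 to 57.0 CPM in RelB-DBDB and to 145.2 to 201.2 CPM in IFNAR;RelB-DBDB, with Ncr1 at 0 CPM in 7 of 8 libraries. The 8 mast cell and basophil markers summed to 8.14 to 22.4 and 26.4 to 42.1 CPM, with Tpsb2 at 0 CPM in 6 libraries, and 4 of 5 eosinophil markers in the table to 5.02 to 12.8 and 25.3 to 33.4 CPM. Kit, a mast cell marker, was lower in IFNAR;RelB-DBDB in all conditions but 8 h. It was at 5.43 CPM in that control and at 10.75 CPM in the RelB-DBDB control. Of the macrophage markers, 8 of 9 were in the table and summed to 1236 to 1634 and 1077 to 1648 CPM, but Mertk was at 14.3 to 24.3 CPM in RelB-DBDB and 2.21 to 5.28 CPM in IFNAR;RelB-DBDB. The 4 stromal markers summed to 1.79 to 3.55 and 5.84 to 7.47 CPM. Of these, Col1a1 and Col1a2 were higher in IFNAR;RelB-DBDB in each condition, while the direction of Acta2 and Pdgfrb varied with condition. The 8 neutrophil markers summed to 121.3 to 230.1 CPM, the 4 B cell markers to 2.58 to 9.59 CPM and the 4 erythroid markers to at most 0.425 CPM over all libraries, with Hba-a1 at 0 CPM in all 8. The part of such cells in the genotype differences was not tested.

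**Figure D4:**
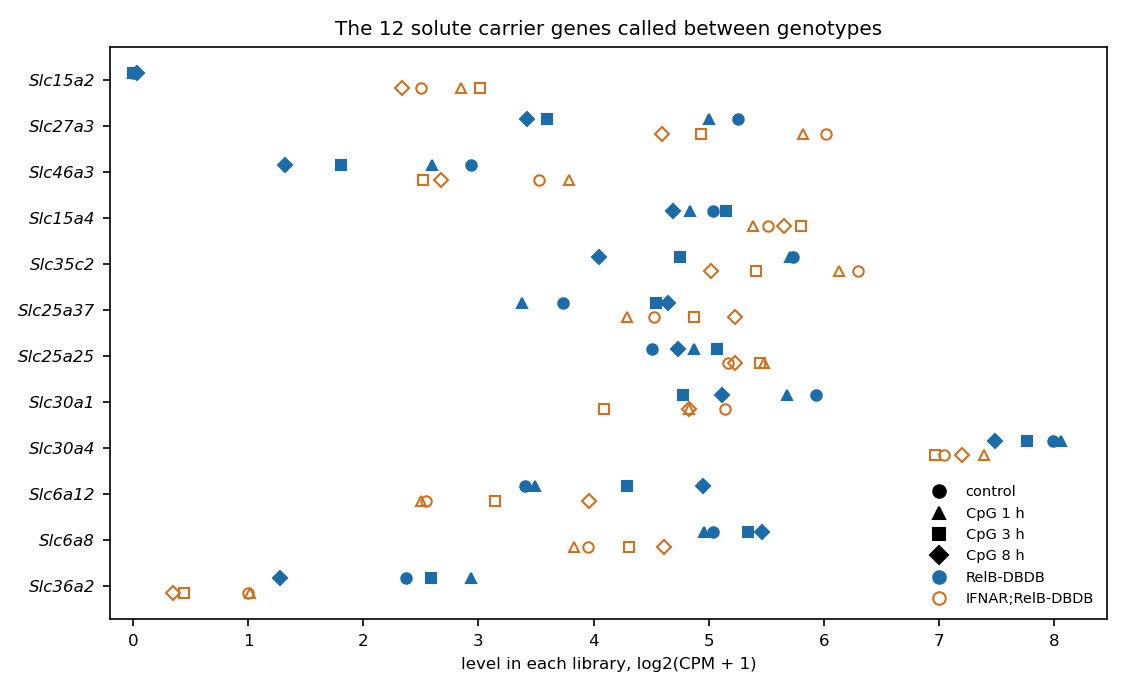
Level in each of the 8 libraries, log2(CPM + 1), of the 12 members called between genotypes, ordered by the genotype difference. Filled blue symbols are RelB-DBDB and open orange symbols IFNAR;RelB-DBDB, with the symbol shape giving the condition. Slc15a2 lies at or near 0 in all RelB-DBDB libraries, and Slc15a4, Slc25a25, Slc30a4, Slc6a8 and Slc36a2 also do not overlap.

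Other transport genes give a reference for the members. Of the 19 tested carriers that the name rule left out, 8 rose and 0 fell at 3 h, and 7 rose and 5 fell at 8 h. Of 29 tested ABC transporters, which pump substrates with ATP, 2 rose and 1 fell at 3 h, and 5 rose and 3 fell at 8 h. Of all tested genes, 3.64% rose and 3.87% fell at 3 h, and 6.51% rose and 15.1% fell at 8 h. Between genotypes 1 left-out carrier was higher and 2 were lower, and 2 ABC transporters were higher, where 4.59% of all tested genes were higher and 1.66% lower. The counts of these lists are on the deposited scale only.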

How the data were processed

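Stranded mRNA libraries (KAPA kit, single-end 50 bp reads), 1 per genotype and condition, were described in the labels' protocols. The submitters' processing notes name cutadapt, edgeR and the mouse build mm10. For the aligner, the annotation and the use of strand in counting, nothing was given in the sources used here. The deposited signal values were read as CPM + 1, as made by the authors: after 1 was subtracted, each library summed to 1000000, and all values were whole multiples of 1 read within 0.01 read. The other 16 columns of the table belong to no sample given here and were not used. Of 27178 rows, 2161 had no gene name (0.0737% to 0.131% of reads) and stayed out of tests.

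Members were chosen by name and level, and members, gene lists and substrate classes were chosen with earlier results of these data known. Values were tested with limma 3.58.1 (limma-trend, R 4.3.3) on log2(CPM + 1), with genotype and condition as additive terms over 8 libraries (3 residual degrees of freedom). A second model added a genotype difference at 3 and 8 h (2 residual degrees of freedom). Genes with 1 CPM or more in 2 or more libraries were tested, 12297 in all, with Benjamini-Hochberg adjustment at 0.05. With 1 library per group, p-values rest on the spread left by the additive model and cannot separate technical from biological spread. Genes named were a fixed list of 20 carriers, of which 2 were not members, and per comparison the called members, or the 12 with the largest change in a direction where more than 12 were called. Where fewer than 3 were called in a direction, the 3 largest with the same sign in both genotypes were added. The other falls at 8 h, Slc7a8, Slc25a3 and Slc25a10 were named after their values were seen. A few genes that this rule names are not reported here. Exon lengths and overlaps came from GENCODE release M21, and promoters from RefSeq (GRCm38.p6). Python 3.11.15, numpy 2.4.6, pandas 2.3.3 and matplotlib 3.10.9 were used. Alternatives were other pseudocounts, filters, scalings, tests and level rules, and each library left out in turn.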

Additional observations from a re-analysis of the deposited data

How the results depend on the processing

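Without a filter on low values, the members called became 0 at 3 h, 7 at 8 h and 0 between genotypes. Testing against a 1.5-fold change (limma treat) gave 1, 8 and 1. Limma-voom on the recovered reads gave 73 at 8 h. Leaving out 1 library in turn gave counts from 0 to 76 at 3 h, 2 to 115 at 8 h, 1 to 29 between genotypes and 0 to 92 for the late genotype difference. The other totals over both directions, at other pseudocounts, filters, scalings and level rules, stayed within 1.5 times, but the split by direction did not. With median-ratio and TMM factors the rises went from 10 to 22 and 19 and the falls from 35 to 21 and 22 at 8 h, and the rises from 7 to 11 and 10 at 3 h. The level rule of 5 CPM in all 8 libraries was added after seeing the data. The planned edgeR test was not run.

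Some uncalled values changed sign. With median-ratio factors the 3 h value of Slc38a9 was 0.0071. With median-ratio and TMM factors Slc25a1 was at 0.11 and 0.070 at 3 h. In the same order, the 8 h values were 0.16 and 0.14 for Slc15a4, 0.12 and 0.099 for Slc43a3, and 0.25 and 0.23 for Slc20a1. With 1 library left out, the ranges were -0.71 to 0.031 for Slc8a1 at 1 h, and -0.45 to 0.063 for Slc25a5 and -0.19 to 0.097 for Slc25a1 at 3 h. At 8 h they were -0.31 to 0.10 for Slc15a4, -0.31 to 0.038 for Slc43a3 and -0.22 to 0.19 for Slc20a1. For the late genotype difference they were -0.11 to 2.53 for Slc25a29 and -0.23 to 1.92 for Slc1a4. The cause was not tested. No paired analysis was possible because each group holds 1 library, so there are no replicate numbers to pair beyond the genotype and condition terms that the main model already has. The shallowest library limits values under 0.808 CPM.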
